A study of Rattus norvegicus with 10 samples.

Results

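The genes described here encode the matrix metalloproteases (Mmp), the membrane-anchored ADAM proteases, the secreted ADAMTS proteases, the tissue inhibitors of metalloproteases (Timp) and the lysosomal cathepsins (Cts). They were taken by symbol from whole-genome arrays of rat mammary tumours, leaving out Ctss and Ctsh, and 68 such genes had a probe with a RefSeq name. Of these, 34 had a probe whose signal stood well above background on 5 or more of the 10 arrays, out of 16779 genes kept by the same filter. They comprise 11 of 21 Mmp genes, 6 of 17 Adam genes, 4 of 7 Adamts genes, all 4 Timp genes and 9 of 19 cathepsin genes. Of the 34 that were not kept, 30 had no clear signal on any array and 4 had one on 1 to 3 arrays. Mmp11 and Timp4, on 5 arrays each, were just inside the limit, and Adamts4 and Ctsw, on 3 each, just outside.

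All tumours came from female Sprague-Dawley rats aged 110 days. Every rat had received 1 intraperitoneal injection of 50 mg/kg N-methyl-N-nitrosourea, a carcinogen that alkylates DNA, at 3 weeks of age, and every rat ate control diet from weaning on. The groups differed in what the mother ate on gestational days 12 to 20 and again on days 1 to 21 after birth, which was either a Western-style diet rich in fat and poor in fibre and trace elements (tumours WD1 to WD5) or the control diet (tumours CD1 to CD5). The series thus asks whether the diet of the mother marks the tumours that a carcinogen later induces in the daughters. The tumours are labelled tubular/papillary, and RNA of the whole tumour was measured with 1 array per tumour. The labels do not say whether tumours of a group came from separate mothers or litters, so the p-values measure the spread between these tumours only.

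Matrix metalloproteases are secreted or membrane-bound zinc enzymes that cut collagens, proteoglycans and other matrix proteins, and most are made as inactive proenzymes. Timp proteins block their active site, ADAM proteases release growth factors and receptors from the cell surface, and ADAMTS proteases mostly cut proteoglycans and procollagens. Cathepsins digest proteins in lysosomes and can be secreted, and all of these families take part in the growth, regression and invasion of mammary tissue.

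Levels are log2 signals relative to the 75th percentile of their array, so that a level of 0 is that percentile. Differences are the mean of the Western-style diet group minus the mean of the control group, with n = 5 tumours in each. Errors of means are SDs, errors of differences are standard errors from limma, and all tests were two-sided. A level is not comparable between genes, because each probe has its own brightness.

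Rat chromosome 8 holds 10 matrix metalloprotease genes that lie next to each other, and the stretch before their start sites is shown because neighbours with the same short word in it differed in whether they were measurable in these tumours. Mmp13, Mmp12, Mmp3 and Mmp7 were well above background on 10 of 10 arrays. Mmp1, Mmp10, Mmp8, Mmp27 and Mmp20 were well above background on 0 of 10 arrays, and Mmp1b had no named probe. The last 100 bases before the RefSeq start site (GRCr8 build, plus strand, written 5′ to 3′) follow for the 4 measurable genes and for 3 of the others. Capitals mark the word TGANTCA, where N is any base. It takes in TGACTCA and TGAGTCA, the binding words of the AP-1 factors Fos and Jun, and as a pattern reads the same on both strands.
Mmp13, chr8:12782729-12782828: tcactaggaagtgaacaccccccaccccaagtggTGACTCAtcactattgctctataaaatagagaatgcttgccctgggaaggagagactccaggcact
Mmp12, chr8:12866552-12866651: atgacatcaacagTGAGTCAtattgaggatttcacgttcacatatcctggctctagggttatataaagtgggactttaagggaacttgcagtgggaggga
Mmp3, chr8:12925181-12925280: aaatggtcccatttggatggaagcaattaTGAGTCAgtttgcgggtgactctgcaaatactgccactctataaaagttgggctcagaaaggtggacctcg
Mmp7, chr8:13132943-13133042: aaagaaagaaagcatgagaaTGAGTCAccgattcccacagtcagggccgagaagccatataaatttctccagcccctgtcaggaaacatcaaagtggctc
Mmp1, chr8:12943353-12943452: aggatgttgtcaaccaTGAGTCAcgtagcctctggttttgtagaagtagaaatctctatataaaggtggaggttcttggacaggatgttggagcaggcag
Mmp10, chr8:12974607-12974706: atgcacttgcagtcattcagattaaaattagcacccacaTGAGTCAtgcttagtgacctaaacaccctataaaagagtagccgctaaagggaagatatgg
Mmp8, chr8:13008790-13008889: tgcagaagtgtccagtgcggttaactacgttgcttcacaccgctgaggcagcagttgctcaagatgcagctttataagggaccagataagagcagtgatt

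The word began 66 bases before the start site in Mmp13, 87 in Mmp12, 71 in Mmp3 and 80 in Mmp7. It was also there in genes that were not measurable, 84 bases before the start of Mmp1, 61 before that of Mmp10 and 96 before that of Mmp20. In Mmp20 it was TGAATCA, which is not one of the AP-1 words named above. Mmp8, Mmp27 and Mmp1b held no such word in the 250 bases before their start, which says only that these letters are not in that window. Of 33469 RefSeq promoter windows of that length, 2122 (6.34%) held the word, with any base at N. Promoter entries were found for 27 of the 34 genes that passed the filter, and 5 of them (18.5%) held it, namely the 4 measurable genes of the cluster and Adam19. Outside the cluster the share was 1 of 23 (4.35%). A match is a string of letters, not a shown binding site, and the word did not separate the measurable genes of the cluster from the others.

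**Figure D1:**
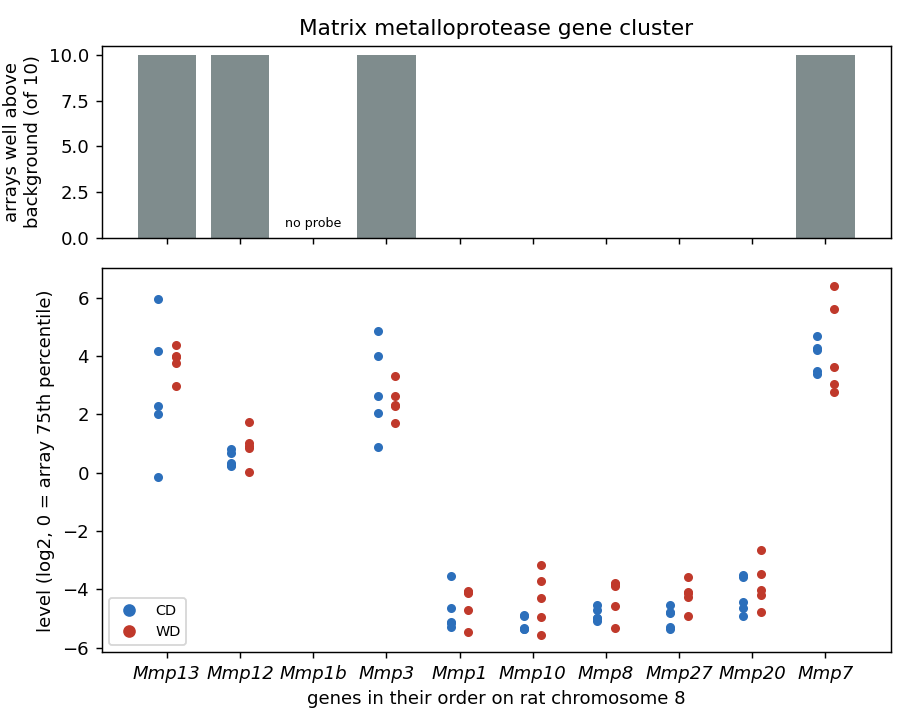
The upper bars give the number of arrays on which each gene of the chromosome 8 cluster was well above background, and the lower points give its log2 level in each tumour (blue, maternal control diet; red, maternal Western-style diet). Mmp13, Mmp12, Mmp3 and Mmp7 are at 10 of 10 arrays, while the points of the other 5 genes with a probe lie between -5.56 and -2.66.

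No gene of these families passed the test for a difference between the maternal diet groups after adjustment over all genes. In the limma fit over all 16779 genes, 0 genes (0.0%) reached an adjusted p below 0.05, and the lowest adjusted p among the 34 genes was 0.181, for Adam19. At an unadjusted p under 0.05, 1 of the 34 was higher in the Western-style diet group (Adam19) and 1 was lower (Ctse). Over all genes, 1308 (7.8%) were higher and 1295 (7.72%) lower at that threshold, each a larger share than the 1 of 34 found here. The groups did not overlap for Adam19 alone among the 34 and for 613 of all genes (3.65%). The median difference of the 34 genes was 0.09, with 20 above 0 and 14 below, and that of all genes was 0.01. The count of 2 genes at that unadjusted threshold was 1 without CD2, CD4, CD5 or WD4, 4 without CD3, WD3 or WD5, and 6 without WD2. The share of all genes under it was 13.6%, 11.0%, 12.8% and 12.8% without CD2, CD4, CD5 and WD4. That share was 19.6%, 13.3% and 16.4% without CD3, WD3 and WD5, and 14.4% without WD2. The count was 0 with normexp background correction, 4 with slide as a block and 5 with array quality weights. In these runs 2.96%, 17.4% and 17.8% of all genes were under the threshold. Of the 34 differences, 15 kept their sign under every alternative run and 19 turned under at least 1.

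The tumours varied more in the median gene of this set than in the median gene of the array. The median SD over the 10 tumours was 0.54 on the log2 scale, against 0.37 over all genes. Dim probes are noisier (0.55 for the 4281 genes on 5 to 9 arrays), but the 24 genes that were well above background on all 10 arrays had a median SD of 0.48, against 0.32 for the 12498 genes of the whole array measured as well. The cause of the wider spread was not tested.

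**Figure D2:**
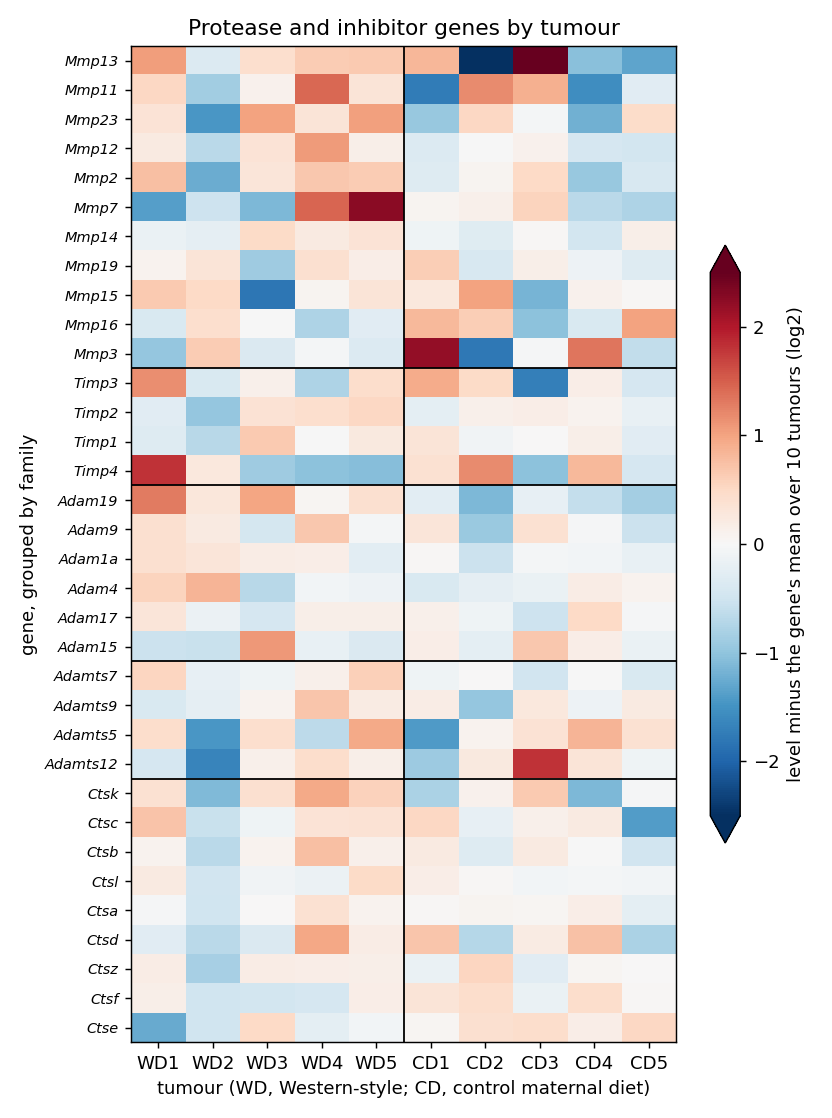
Each row is a protease or inhibitor gene and each column a tumour, with colour giving the log2 level minus the gene's mean over the 10 tumours. The strongest colours are single tumours rather than whole groups, such as Mmp13 in CD2 and CD3, Mmp7 in WD5 and Mmp3 in CD1.

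**Figure D3:**
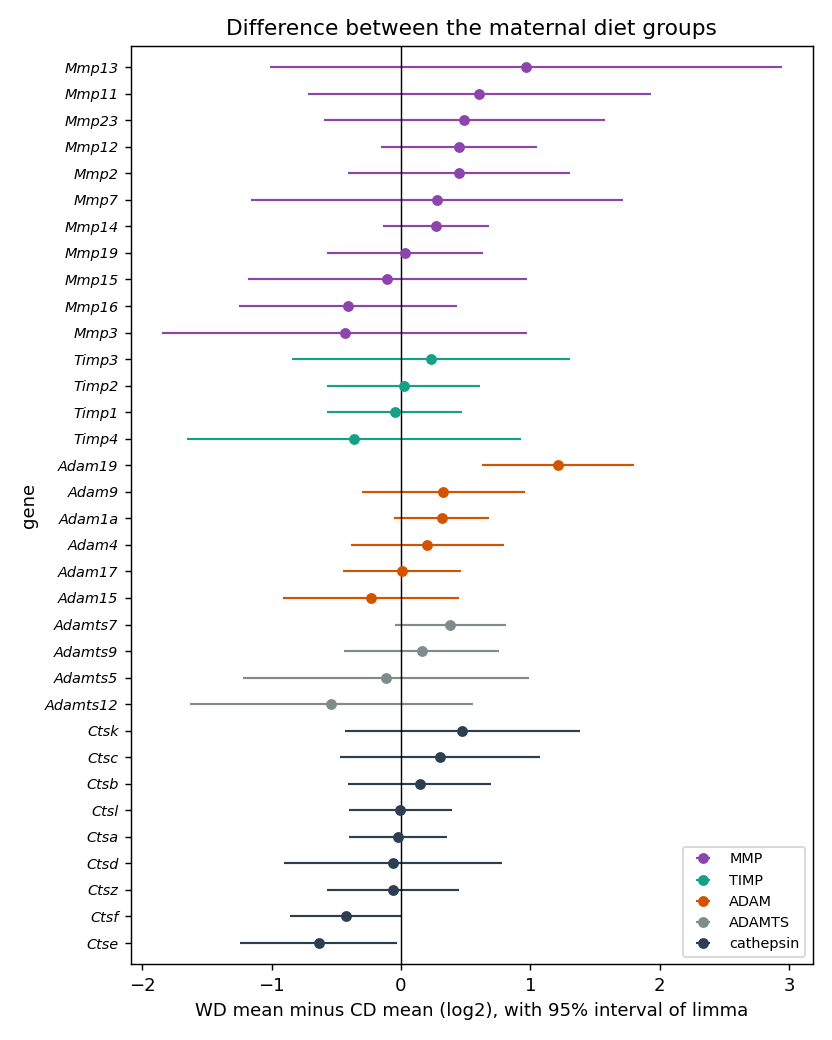
Points give the difference between the group means (Western-style minus control diet, log2) and bars its 95% interval from limma, coloured by family. The interval of Adam19 (0.62 to 1.80) lies above 0 and that of Ctse (-1.24 to -0.03) below it, and all others include 0.

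Among the secreted collagen-cutting and matrix-cutting metalloproteases, none passed the test between the groups, but several varied strongly from tumour to tumour. The collagenase gene Mmp13 had levels of 4.39, 2.99, 3.77, 3.97 and 4.00 in WD1 to WD5. In CD1 to CD5 it had levels of 4.18, -0.16, 5.97, 2.30 and 2.02. The control tumours thus held both the lowest and the highest value, and the Western-style diet tumours lay inside that range. The lowest and the highest tumour differed 69.9-fold, and the SD over 10 tumours (1.66) was at percentile 99.6 of all genes. The SD was 0.52 in the Western-style diet group and 2.32 in the control group. The difference of the means was 0.96 ± 0.90 (adjusted p 0.626, 95% interval -1.01 to 2.94). With array brightness as a covariate it was -0.26. Without CD2 it was 0.21 and without CD3 1.74, the latter with an unadjusted p under 0.05.

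Mmp3 encodes a stromelysin, which cuts proteoglycans and activates other proenzymes. Its levels were 1.69, 3.31, 2.31, 2.63 and 2.32 in WD1 to WD5. They were 4.87, 0.89, 2.63, 4.00 and 2.05 in CD1 to CD5. As with Mmp13, the control tumours held both extremes and CD2 was the lowest, but the highest tumour was CD1 rather than CD3. The difference was -0.44 ± 0.64 (adjusted p 0.766). It was -0.09 with slide as a block, -0.84 with array quality weights, and from -0.94 (without CD2) through -0.25 (without WD1) and -0.16 (without CD4) to 0.06 (without CD1) when 1 tumour was left out. Mmp3 and Mmp13 had a Pearson correlation over the 10 tumours of 0.34 (Spearman 0.27, permutation p 0.340 and 0.451, adjusted over 10 pairs 0.378 and 0.546). It was 0.33 after centring on slide and -0.34 (exact permutation p 0.410) without CD1 and CD2.

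Mmp7, or matrilysin, is a small metalloprotease that epithelial cells make. Its levels were 2.78, 3.63, 3.03, 5.62 and 6.41 in WD1 to WD5. The control tumours CD1 to CD5 had 4.22, 4.28, 4.71, 3.48 and 3.39. Here the spread was on the other side, with WD4 and WD5 above all control tumours and WD1 and WD3 below them. The difference was 0.28 ± 0.66 (adjusted p 0.866), and the lowest and highest tumour differed 12.4-fold. The difference was 0.54 with slide as a block, 0.87 with array quality weights, -0.25 without WD5, -0.05 without WD4 and 0.66 without WD1.

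Mmp12, the macrophage metalloelastase, had levels of 0.92, 0.02, 1.03, 1.76 and 0.84 in WD1 to WD5. In CD1 to CD5 it had 0.35, 0.68, 0.81, 0.26 and 0.24. In the Western-style diet group 4 of 5 tumours lay above the highest control tumour, and WD2 lay below the lowest one. The difference was 0.45 ± 0.28 (1.36-fold, adjusted p 0.446). Without WD2 the unadjusted p of Mmp12 was under 0.05.

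Mmp11, a stromelysin that stromal fibroblasts make and furin activates, had a clear signal on 3 arrays of the Western-style diet group and on 2 of the control group. Its levels were -2.01, -3.40, -2.42, -1.08 and -2.21 in WD1 to WD5. They were -4.27, -1.35, -1.65, -4.08 and -2.80 in CD1 to CD5. WD4 was the highest tumour and CD1 and CD4 the lowest, with a difference of 0.61 ± 0.60 (adjusted p 0.650). Mmp19 had means of -1.0 ± 0.52 and -1.03 ± 0.41, the first in the Western-style diet group. Mmp23 had means of -0.49 ± 1.01 and -0.97 ± 0.79, with WD2 the lowest tumour at -2.18.

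**Figure D4:**
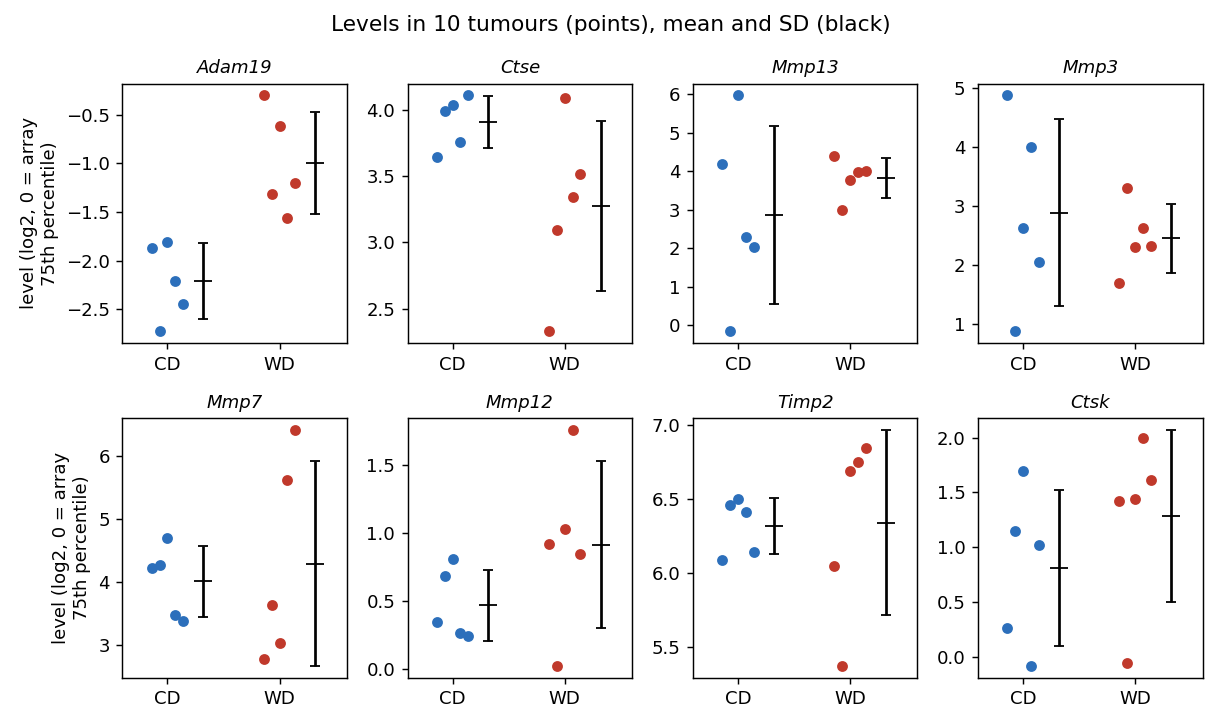
Points are log2 levels in single tumours of the maternal control diet (CD, blue) and Western-style diet (WD, red) groups, and black marks are means with SDs (n = 5). Only Adam19 has groups that do not overlap. The wide groups are the control tumours for Mmp13 and Mmp3 and the Western-style diet tumours for Mmp7, Mmp12, Timp2 and Ctse.

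Mmp2, the gelatinase that digests denatured collagen and basement membrane, is activated at the cell surface by Mmp14 with Timp2 as the bridge. Mmp2 levels were 3.86, 1.87, 3.40, 3.77 and 3.74 in WD1 to WD5. They were 2.77, 3.18, 3.60, 2.15 and 2.71 in CD1 to CD5. WD2 was the lowest of the 10 tumours and the other 4 of its group lay above 4 of the 5 control tumours. The difference was 0.45 ± 0.39 (adjusted p 0.601), and without WD2 its unadjusted p was under 0.05. Mmp14 had means of 5.68 ± 0.32 in the Western-style diet group and 5.41 ± 0.25 in the control group, a difference of 0.27 ± 0.19 (adjusted p 0.503).

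Timp2 levels were 6.05, 5.37, 6.69, 6.75 and 6.84 in WD1 to WD5. They were 6.09, 6.46, 6.50, 6.41 and 6.14 in CD1 to CD5. In the Western-style diet group 3 tumours lay above all control tumours and the other 2 below them, so the means (6.34 ± 0.63 and 6.32 ± 0.19) were close. The difference was 0.02 ± 0.27, with a 95% interval of -0.57 to 0.61. Mmp2 and Timp2 had a Pearson correlation of 0.67 over the 10 tumours (Spearman 0.49, permutation p 0.0298 and 0.153, adjusted over 10 pairs 0.0597 and 0.234). It was 0.75 after centring on slide and 0.51 (exact permutation p 0.197) without WD2 and CD4, so that it was no longer under the threshold in the 8 tumours left. Mmp2 and Mmp14 gave 0.57 (Spearman 0.48, permutation p 0.0888 and 0.164, adjusted 0.127 and 0.234). That correlation was 0.53 after centring on slide and 0.21 (exact permutation p 0.598) without the same tumours.

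The membrane-type genes Mmp15 and Mmp16 were dim, on 3 and 2 Western-style diet arrays and on 4 control arrays each. Mmp15 had means of -2.27 ± 1.00 and -2.16 ± 0.78, the first in the Western-style diet group, and Mmp16 had means of -2.27 ± 0.44 and -1.86 ± 0.87. The differences were -0.10 ± 0.49 and -0.41 ± 0.38 (adjusted p 0.936 and 0.624). For Mmp16 the difference was -0.72 without CD3 (unadjusted p under 0.05), -0.21 without CD5, -0.10 with normexp and 0.03 with array brightness as a covariate.

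None of the other inhibitors passed the test. Timp1, an inducible inhibitor of most Mmp proteins, had means of 3.91 ± 0.51 in the Western-style diet group and 3.96 ± 0.23 in the control group (difference -0.05 ± 0.24, 95% interval -0.57 to 0.47). Timp3, which binds to the matrix and also blocks Adam17, had a clear signal on 2 and 4 arrays of the groups, with a difference of 0.23 ± 0.49. Timp4, on 1 Western-style diet array and 4 control arrays, had levels of -0.29, -1.84, -2.99, -3.12 and -3.18 in WD1 to WD5. Its control levels were -1.73, -0.93, -3.14, -1.30 and -2.53. The bright tumour WD1 stood above all others, while the remaining 4 of its group had no clear signal, and the difference was -0.36 ± 0.59 (adjusted p 0.791).

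Adam19, a membrane-anchored sheddase known for releasing neuregulins, had the lowest p of the 34 genes. Its levels in WD1 to WD5 were -0.30, -1.32, -0.61, -1.56 and -1.21. In CD1 to CD5 they were -1.87, -2.73, -1.81, -2.21 and -2.45. Every Western-style diet tumour lay above every control tumour. The means were -1.0 ± 0.53 and -2.21 ± 0.39, a difference of 1.21 ± 0.27 (2.32-fold), with an unadjusted p of 0.000836 in limma that did not pass the adjustment over all genes (0.181). Within slides 1, 2 and 3 the difference was 1.92, 1.04 and 0.83. CD2 was the only control tumour on slide 1 and WD5 the only Western-style diet tumour on slide 3.

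The size of the Adam19 difference depended on how background was treated. It was 0.45 with normexp background correction (unadjusted p 0.0732) and 0.38 in the deposited log2 matrix, whose values keep the background. With array brightness as a covariate it was 0.98. The probe was dim, though well above background on all 10 arrays. The 15989 probes that were well above background on no array, and so carry no clear signal, had a median difference of 0.56 in the same direction. Brightness itself moved with the groups, as the log2 of the 75th percentile of signal ran from 6.19 to 7.41 in the Western-style diet group and from 6.41 to 7.82 in the control group. The part of brightness in the Adam19 result was not tested beyond these values. A further Adam19 probe was well above background on 0 arrays and gives no check.

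Adam17, the sheddase of tumour necrosis factor and of several growth factors of the epidermal growth factor family, had means of -0.31 ± 0.29 in the Western-style diet group and -0.32 ± 0.37 in the control group. The difference was 0.01 ± 0.21, with a 95% interval of -0.45 to 0.47. Adam9 (0.33 ± 0.29), Adam1a (0.31 ± 0.17) and Adam4 (0.20 ± 0.27) had differences above 0 and Adam15 (-0.23 ± 0.31) one below 0, with adjusted p from 0.386 to 0.745. For Adam9 a second kept probe gave -0.06, so its probes differed in sign. Adam15 without WD3, and Adam1a without WD5, had an unadjusted p under 0.05.

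Of the Adamts genes, none had an unadjusted p under 0.05 in the limma fit of all 10 tumours without covariates or array weights. Adamts7, which cuts cartilage oligomeric matrix protein, had means of -0.13 ± 0.37 in the Western-style diet group and -0.51 ± 0.22 in the control group (difference 0.38 ± 0.19, adjusted p 0.366). It was 0.42 with slide as a block (unadjusted p 0.0398) and 0.69 with array brightness as a covariate (unadjusted p 0.0065). The unadjusted p was also under 0.05 with array quality weights and without WD2 or WD3. Adamts12 levels were -1.68, -2.90, -1.13, -0.81 and -1.10 in WD1 to WD5. They were -2.17, -1.01, 0.55, -0.93 and -1.37 in CD1 to CD5. CD3 was the highest tumour and WD2 the lowest, and the difference was -0.54 ± 0.50 (adjusted p 0.622). The aggrecan-cutting Adamts5, on 2 and 4 arrays, had a difference of -0.11 ± 0.50, and the versican-cutting Adamts9 one of 0.16 ± 0.27.

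Among the 9 cathepsins, Ctse was the one with an unadjusted p under 0.05. Cathepsin E is an aspartic protease of endosomes. Its levels were 2.33, 3.09, 4.09, 3.35 and 3.52 in WD1 to WD5. They were 3.65, 3.99, 4.04, 3.76 and 4.11 in CD1 to CD5. In the Western-style diet group 4 tumours lay below the lowest control tumour, while WD3 lay within the control range. The difference was -0.63 ± 0.28 (1.55-fold lower, unadjusted p 0.0414, adjusted p 0.301 in limma). Within slides 1, 2 and 3 it was -1.28, -0.36 and -0.19, with CD2 and WD5 alone in their groups on slides 1 and 3. It missed that unadjusted threshold without any 1 of CD2, CD3, CD4, CD5, WD1, WD2 or WD4 (-0.67 to -0.40), with normexp (-0.52) and with array brightness as a covariate (-0.76).

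The cysteine protease gene Ctsf had levels of 1.47, 0.83, 0.87, 0.90 and 1.48 in WD1 to WD5. They were 1.64, 1.77, 1.16, 1.76 and 1.36 in CD1 to CD5. WD1 to WD5 were all under 1.54, the control mean, though the groups overlapped. The difference was -0.43 ± 0.20 (unadjusted p 0.0514, adjusted p 0.325). With slide as a block it was -0.40 with an unadjusted p of 0.034, and the unadjusted p was also under 0.05 in the deposited matrix, with the filter on all arrays, and without CD3, WD1 or WD5. With array brightness as a covariate it was -0.11.

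Ctsk, the collagen-degrading cathepsin of osteoclasts and fibroblasts, had levels of 1.43, -0.06, 1.44, 1.99 and 1.61 in WD1 to WD5. They were 0.26, 1.15, 1.70, -0.09 and 1.02 in CD1 to CD5. WD2, CD4 and CD1 were the 3 lowest tumours, and the difference was 0.47 ± 0.41 (adjusted p 0.599).

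The aspartic protease gene Ctsd, the classic lysosomal enzyme of mammary tumours, had levels of 6.42, 6.05, 6.36, 7.68 and 6.91 in WD1 to WD5. They were 7.41, 6.01, 6.91, 7.45 and 5.92 in CD1 to CD5. Ctsb, the main cysteine cathepsin of the same organelle, had levels of 7.59, 6.83, 7.61, 8.26 and 7.63 and of 7.74, 7.18, 7.73, 7.50 and 7.04 in the same order. WD4 was the highest tumour for both genes, and WD2, CD2 and CD5 were the 3 lowest for both. Their correlation was 0.82 (Spearman 0.77, permutation p 0.0029 and 0.0123, adjusted over 10 pairs 0.0144 and 0.0616). It was 0.72 (exact permutation p 0.0405) without WD2 and WD4 and 0.84 after centring on slide. Neither gene passed the test between the groups, with differences of -0.06 ± 0.38 for Ctsd and 0.14 ± 0.25 for Ctsb.

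On the probe of highest mean level, the other cathepsins had differences of -0.02 ± 0.17 for the carboxypeptidase Ctsa, 0.00 ± 0.18 for Ctsl, -0.06 ± 0.23 for Ctsz and 0.30 ± 0.35 for Ctsc, which activates the serine proteases of granules. For Ctsa the mean of its 3 kept probes gave -0.28, and the lowest of them -0.66 (unadjusted limma p 0.0102). A second kept Ctsl probe gave -0.26 (unadjusted limma p 0.187). Absent from the measurable set were the neutrophil protease Ctsg (0 arrays), the cytotoxic cell cathepsin Ctsw (3 arrays) and rodent placental cathepsins such as Cts7, Cts8 and Ctsj (0 arrays each). The gelatinase Mmp9, the other main collagenase genes Mmp1 and Mmp8, and the reproductive tract genes Adam2, Adam5 and Adam7 were likewise on 0 arrays. No probe with a RefSeq name stood for Adam8, Adam10, Adam12, Adam28, Adam33, Adamts1, Adamts2 or Ctso, which were not analysed here.

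One tumour accounted for many of the low values. WD2 had the lowest level of the 10 tumours for 13 of the 34 genes, and WD4 had the highest level for 8 and the lowest for 0. WD2 also had the lowest level of the 13 measured macrophage and monocyte markers (1.53, against 2.07 to 3.63 in the other tumours). The same held for the 8 measured fibroblast markers (0.21, against 0.35 to 1.92). The other measured cell type lists had their lowest level in other tumours. Levels in WD2 were also the lowest for plasminogen activation (0.22), proenzyme convertases (0.29) and cystatins and related inhibitors (1.90). Lysosomal genes (1.66) and Fos, Jun and Ets factors (2.23) were lowest there too. Its array was among the dimmest, with a log2 75th percentile of 6.34. How often WD2 was lowest over all genes was not counted. In bulk tumour RNA, fewer cells of a type and less RNA per cell cannot be told apart. Without WD2, 6 of the 34 genes had an unadjusted p under 0.05, against 14.4% of all genes counted in either direction. The 6 were all higher in the Western-style diet group (Adam19, Adamts7, Ctsk, Mmp12, Mmp2 and Mmp23). None of these passed the adjustment. WD2 was singled out by its low levels among the 34 genes, and leaving it out raises the Western-style diet mean of each of the 6. Their shared direction is thus not a separate result, and the share of all genes higher without WD2 was not counted.

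Mmp12 followed the macrophage markers closely over the tumours. The Pearson correlation of Mmp12 with the mean of these markers was 0.93 and the Spearman correlation 0.96, with permutation p of 9e-05 and 4e-05 (0.0009 and 0.0004 adjusted over 10 pairs). It was 0.95 (exact permutation p 0.0012) without WD4 and WD2, 0.92 after centring on slide and 0.94 after taking out array brightness. The points share their arrays. In the same tumours Ctsd had a correlation of 0.19 with these markers (Spearman 0.20, permutation p 0.592 and 0.585, the same after adjustment), which was 0.33 after centring on slide and 0.09 without WD4 and CD4. All 13 macrophage markers had differences above 0 (0.08 to 0.89), as did 8624 of all 16779 genes. The 13 were measured in the same tumours and are not independent results. At an unadjusted p under 0.05 in limma, 2 of them (Mrc1 and Laptm5) were higher, as were 7.8% of all genes. Cd163 and Itgam were not kept by the filter. The part of macrophage content in the Mmp12 values was not tested further.

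**Figure D5:**
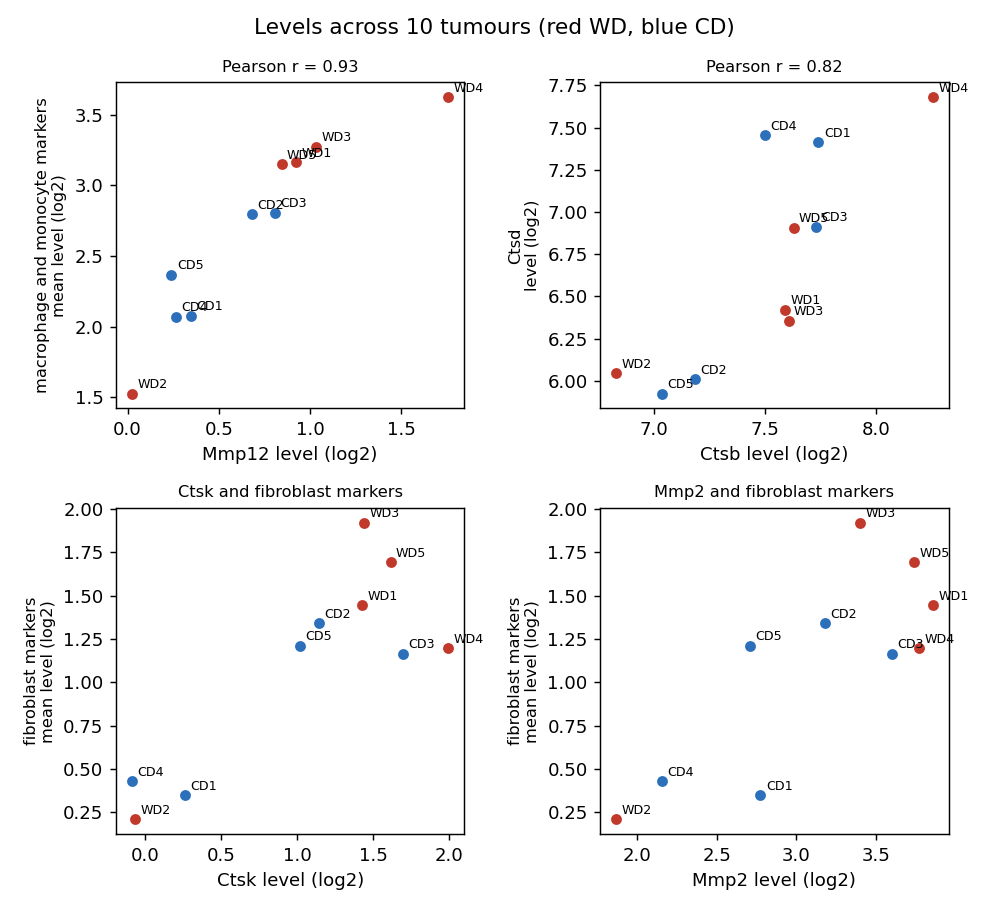
Each panel sets 2 measures against each other over the 10 tumours (red, WD; blue, CD), in log2 levels or mean log2 levels of a marker list. Mmp12 rises with the macrophage markers along the whole range (r 0.93) and Ctsb with Ctsd (0.82), while in the lower panels CD1, CD4 and WD2 stand apart at fibroblast levels of 0.21 to 0.43.

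For the fibroblast markers the tumours fell into separate clusters, so no correlation over all 10 is given. CD1, CD4 and WD2 had levels of 0.21 to 0.43 and the other 7 tumours 1.17 to 1.92. Ctsk was at -0.09 to 0.26 in those 3 tumours and at 1.02 to 1.99 in the other 7. Within the 7, Ctsk and the markers had a correlation of -0.06 (Spearman -0.29, exact permutation p 0.908 and 0.556), Mmp2 and the markers 0.19 (0.04, exact permutation p 0.689 and 0.964), and Timp1 and the markers 0.79 (0.32, exact permutation p 0.0335 and 0.498). Adjusted over these 3 relations, the smallest p was 0.101. Ctsl and a list of 22 other lysosomal genes had a correlation of 0.59 over all tumours (Spearman 0.52, permutation p 0.0835 and 0.134, adjusted 0.127 and 0.234), which was 0.44 after centring on slide and 0.22 without WD5 and WD2.

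Of 14 luminal epithelial markers on the array 13 were measured, among them the keratin genes Krt8, Krt18 and Krt19 of the labelled epithelium. Their mean level was 2.58 to 3.03 in the Western-style diet tumours and 3.07 to 3.55 in the control tumours, and 5 of them had an unadjusted p under 0.05, all lower (7.72% of all genes were). The 5 were Krt8 (-0.96 ± 0.34), Krt19 (-1.11 ± 0.37) and the hormone receptor genes Pgr (-0.99 ± 0.26), Esr1 (-1.17 ± 0.37) and Prlr (-0.74 ± 0.34). Esr1 had a clear signal on 0 Western-style diet arrays and on 5 control arrays. Krt18 (0.04 ± 0.18), Gata3 (0.35 ± 0.34) and Elf5 (0.22 ± 0.73) had differences above 0. Of 6 measured T and NK cell markers, 4 were higher at that threshold (7.8% of all genes were), and the mean levels of 0.12 to 1.79 and -0.44 to 0.77 in the groups overlapped. No gene of these lists passed the adjustment. None of the 3 B cell markers on the array was kept. The part of these cell types in the Adam19 and Ctse differences was not tested.

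Among partners of these proteases, no gene passed the adjustment in limma, and counts at an unadjusted p under 0.05 stand beside 7.8% higher and 7.72% lower over all genes. Of 7 measured genes of plasminogen activation, the cascade that activates several proenzymes, 2 were higher at an unadjusted p under 0.05. They were the urokinase receptor gene Plaur (0.81 ± 0.33, adjusted p 0.270) and S100a10 (0.39 ± 0.17, adjusted p 0.293), while urokinase itself (Plau) had -0.01 ± 0.48. Plaur and Plau were dim, each with a clear signal on 3 Western-style diet arrays and on 2 control arrays. Of 9 proenzyme convertases and ADAM partners 1 was higher, the convertase Pcsk6 (1.35 ± 0.45, adjusted p 0.215). Pcsk6 was dim too, with a clear signal on 4 arrays of each group and a control mean of -2.52. The median difference of probes without a clear signal on any array, 0.56, was in the same direction. Furin (-0.16 ± 0.31) and the Adam17 partner Rhbdf2 (0.05 ± 0.19) had intervals that include 0.

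Of 6 other inhibitors and binding partners none had an unadjusted p under 0.05. They include the Mmp inducer Bsg (-0.48 ± 0.27) and the Mmp9 partner Lcn2 (0.34 ± 0.44). Of 7 cystatins and related inhibitors 1 was higher, Serpina3n (1.75 ± 0.55, adjusted p 0.202). Serpina3n was dim, with a clear signal on 4 Western-style diet arrays and on 2 control arrays. Probes with no clear signal on any array had a median difference of 0.56 in the same direction. The cathepsin inhibitors Cst3 and Cstb had differences of 0.23 ± 0.39 and -0.09 ± 0.22.

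Among 22 measured lysosomal genes that are not cathepsins, 0 were higher and 3 lower at an unadjusted p under 0.05, with a median difference of -0.19. The 3 were the asparaginyl protease Lgmn (-0.59 ± 0.20, adjusted p 0.221), the mannose phosphate receptor M6pr (-0.58 ± 0.21, adjusted p 0.233), which carries enzymes to lysosomes, and the peptidase Tpp1 (-0.63 ± 0.27, adjusted p 0.297). The membrane protein Lamp1 had a difference of -0.30 ± 0.20.

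Of 15 measured ADAM substrates 2 were higher at that threshold, both of them receptors that are shed from the cell surface. They were Il6r (0.79 ± 0.27, adjusted p 0.224) and Tnfrsf1a (0.39 ± 0.17, adjusted p 0.302), while the growth factor Areg had -0.16 ± 0.35. Of 14 matrix substrates, Fn1 (0.95 ± 0.41) and Tnc (0.96 ± 0.39) were higher and Lamc1 (-0.60 ± 0.22) lower, with adjusted p of 0.302, 0.274 and 0.254. Col1a1 had 0.40 ± 0.37 and Vcan -0.30 ± 0.35. Of the 9 measured Fos, Jun and Ets factors 0 were higher and 0 lower, with a median difference of 0.11.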

How the data were processed

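Each of 10 tumours had its RNA labelled with Cy3 and hybridised to 1 Agilent array of the rat genome. The deposited array files hold spot intensity values, background-subtracted and not scaled between arrays per the file headers, beside marks of 0 or 1 for a signal well above background and for outlier spots. The software was Agilent Feature Extraction 11.5.1.1 per the file headers and 15.5 per the submitters' processing notes. The deposited series matrix holds log2 values, whose ranks were those of the median spot signals.

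Outlier spots were left out, processed intensity was put on the log2 scale and each array's 75th percentile was subtracted. Probes entered the tests if marked well above background (in at least 0.5 of their spots) on 5 or more arrays. Of several kept probes of a gene, that of highest mean was used. RefSeq (GRCr8) transcript identifiers named 17502 of 41012 probes (42.7%). Array coordinates were not used.

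The comparison of the groups used limma 3.58.1 under R 4.3.3, with files read by data.table (version 1.17.8), with Benjamini-Hochberg adjustment over 16779 genes. Correlations used 100000 permutations (all permutations for fewer than 10 tumours), over 10 of 14 listed pairs, the others holding a gene or list that was not measured. The 3 slides each held both groups and were scanned one by one, so slide and scan coincide. Slide 1 held WD1, WD2 and CD2, slide 2 WD3, WD4, CD3 and CD5, and slide 3 WD5, CD1 and CD4. Pairs of arrays correlated at 0.915 to 0.977. The number of arrays limits the precision. In all 20 alternatives were run, 10 of processing or model and 10 leaving out 1 tumour each. The normexp background correction (offset 50) used median spot signals. The fit was tested on simulated data. Plots used matplotlib 3.10.9 in Python 3.11.15.

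The members and lists were chosen with earlier results of these data known. Genes given in every tumour were those at an unadjusted p under 0.05 or with groups that do not overlap, the 6 with the widest SD, and others from a list of names.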

Additional observations from a re-analysis of the deposited data

Results flagged for a closer look

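In 7 cases a value stood far from the other 4 tumours of its group, out of 68 sets of 5 values checked (34 genes in each group). Chance alone marks about 1 in 20 such sets. Of the 7, 4 were low values of WD2, for Mmp2 (1.87, the others 3.40 to 3.86), Mmp23 (-2.18), Ctsk (-0.063) and Ctsz (0.45, the others 1.43 to 1.47). The other 3 were values of WD3, which was high for Adam15 (6.37) and low for Mmp15 (-4.02) and Mmp19 (-1.91). None of the 7 lay in the control group.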

How the results depend on the processing

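The count of genes of all 16779 with an adjusted p under 0.05 was 0 in limma under all 20 alternatives, while the count at an unadjusted p under 0.05 was 2603, 496 with normexp background correction, 963 with array brightness as a covariate and 7055 of 36061 without a filter on dim probes. Of the 34 members 2 were under that unadjusted threshold, and this count was 0 with normexp, 4 with slide as a block (17.4% of all genes), 5 with array quality weights (17.8%) and 9 of 68 without the filter (19.6%). Leaving out 1 tumour gave 1 (without CD2, CD4, CD5 or WD4) to 6 (without WD2), with 4 without CD3, WD3 or WD5. The share of all genes under the threshold also moved, from 11.0% without CD4 to 19.6% without CD3, and was 14.4% without WD2. The cause was not tested. The members' median difference ran from -0.02 to 0.40, the latter without the filter, which also moved the median of all genes to 0.34, and leaving out 1 tumour gave -0.02 to 0.24. Deviations from the group means correlated at -0.02 to 0.16 between tumours of the same replicate number. These values cannot settle whether the numbers mark pairs, as tumours of different numbers were not compared. With the numbers as a replicate block the count was 2 and the median 0.09. Adam19 stayed above 0 in all 20 alternatives (0.38 to 1.35) and under an unadjusted p of 0.05 in 19, with adjusted p from 0.112. Ctse stayed below 0 in all 20 (-0.84 to -0.40) and under that threshold in 11. The correlation of Mmp2 and Timp2 lost its unadjusted threshold without 2 tumours (0.51). Dim probes limit Mmp11, Mmp15, Mmp16, Timp3, Timp4 and Adamts5, each not well above background on at least 3 arrays. Dim probes also limit the partner genes Plaur, Plau, Pcsk6 and Serpina3n.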
